A study of Mus musculus with 23 samples.

Results

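The solute carriers are the genes whose symbol begins with Slc, a family number, the letter a and a member number, or with Slco, in the deposited count tables of injured mouse spinal cord. The glutamate carriers Slc1a2 and Slc1a3 and the vesicular glutamate carrier Slc17a6 were left out, since they served as cell type markers. Of 9480 genes with a symbol in either table, 146 were members: 85 were placed at the plasma membrane, 30 were mitochondrial carriers of the Slc25 family, 29 were placed in organelles such as the Golgi apparatus, endosome, lysosome or vesicle, and 2, Slc9a3r1 and Slc7a6os, carry the name but are no carriers. The members were chosen by symbol, not by any measured value, though earlier results of these data were known when the choice was made. Location was assigned by family and symbol, and every member not listed for another place was counted at the plasma membrane.

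Solute carriers are membrane proteins that move sugars, amino acids, ions, metals, neurotransmitters and nucleotides across membranes, by facilitated diffusion or coupled to the gradient of another ion, most often the sodium gradient that the sodium pump maintains. In the central nervous system astrocytes use them to take up transmitter released at synapses, to move bicarbonate, and to exchange lactate and glucose with blood and neurons. Neurons carry the transporters that reload their own transmitter. Slc25 carriers sit in the inner mitochondrial membrane and exchange ADP for ATP, phosphate, citrate, amino acids and nucleotides with the cytosol.

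The mice were young adult mGFAP-Cre-RiboTag animals, with the genotype given as wild type in the labels: a Cre recombinase driven by the mouse Gfap promoter switches on a hemagglutinin (HA) tag on ribosomes, so that any cell in which that promoter was ever active carries the tag. All groups had a severe crush of the spinal cord at thoracic level 10, and the central 3 mm of the lesion was taken at day 14. RNA that came down with the tagged ribosomes (HA) and RNA that stayed in the flow-through (FT) was sequenced from cords that received a hydrogel depot with growth factors at day 2 after injury (3 HA and 5 FT libraries), a hydrogel depot labelled CT (3 HA and 4 FT libraries; the labels do not spell CT out) or no depot, labelled SCI only (4 HA and 4 FT libraries). The series title gives the growth factors as FGF and EGF while column names in the tables read BDNF_NT3Gel and EmGel, and the name used below, hydrogel with growth factors, makes no choice between them. Libraries are named by the number in their title, and 10 numbers occur in both fractions. The SCI only libraries carry numbers that begin with 9 and the hydrogel libraries numbers that begin with 1. A difference between hydrogel and SCI only cords therefore cannot be told apart from any other difference between those sets of libraries.

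Total counts per library were 7940025 to 24337017 in HA, 19607 to 145365 in hydrogel FT and 2241603 to 5432938 in SCI only FT. The locus Yam1, which collects ribosomal RNA reads, took 40% to 93.1% of them in HA and 13.7% to 93.1% in FT, and counts on protein-coding genes other than Lars2 came to 202250 to 5799194 in HA and 2251 to 255152 in FT. FT values of single carriers therefore often rest on a few counts, and FT libraries at 0 are common. The labelled cell type was checked on marker lists: in HA over FT, 8 of 9 astrocyte markers tested rose, and their summed level had a lowest, median and highest value of 3379, 4899 and 7343 CPM (counts scaled to library size with TMM factors) in HA, against 171, 1076 and 1783 CPM in FT. Of oligodendrocyte progenitor markers 4 of 5 rose (225, 529 and 798 CPM in HA, against 18.5, 65.6 and 134 CPM in FT) and of oligodendrocyte markers 2 of 6 rose (815, 1091 and 2072 CPM in HA, against 115, 689 and 1109 CPM in FT). Of neuron markers 5 of 6 fell (32.6, 69.6 and 260 CPM in HA, against 291, 841 and 1552 CPM in FT), and of microglia and macrophage markers 6 of 7 fell (15.2, 84.2 and 776 CPM in HA, against 64.5, 1920 and 7504 CPM in FT). No endothelium or ependyma marker had enough counts to be tested. No astrocyte, neuron or microglia marker with a row was at 0 in every library of a group. The part of these other cell types in the carrier values below was not tested.

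Of the 146 carriers, 142 had an HA row and 88 an FT row. A total of 84 had both, 58 had a row for HA only and 4 (Slc16a10, Slc32a1, Slc37a2 and Slc40a1) one for FT only. Of the HA members, 55 had a count in every HA library and 18 had a median count of 0. In FT 8 of 88 were counted in every library, with a median count of 0 for 22.

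The levels of the carriers in HA, in CPM per kilobase of transcript so that genes can be compared, were led by a mitochondrial and a plasma membrane carrier. Slc25a4, the ADP/ATP carrier of heart, muscle and brain, had a lowest, median and highest level of 7.22, 20.8 and 92.3 CPM per kilobase over the 10 HA libraries. Slc6a11, the GABA transporter GAT-3 of astrocytes, came next with 12.5, 19.99 and 55.5 CPM per kilobase. Slc4a4, the electrogenic sodium bicarbonate cotransporter, had 6.65, 12.8 and 37 CPM per kilobase. Their ranges overlapped, so that the order among them did not exceed the spread between libraries. Further down were the mitochondrial glutamate carrier Slc25a18 at a median of 10.3 CPM per kilobase, the ADP/ATP carrier Slc25a5 at 9.75, the magnesium transporter Slc41a1 at 9.46, the choline transporter-like Slc44a1 at 7.84, the lipocalin receptor Slc22a17 at 7.34 and the phosphate transporter Slc20a2 at 5.97 CPM per kilobase, again with overlapping ranges. Of the 142 carriers, 18 lay in the top 10% of all genes by median HA level and 34 in the top 25%: 11 of the 18 were plasma membrane carriers, 6 mitochondrial and 1 no carrier (Slc9a3r1), and no organelle carrier was among them.

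**Figure D1:**
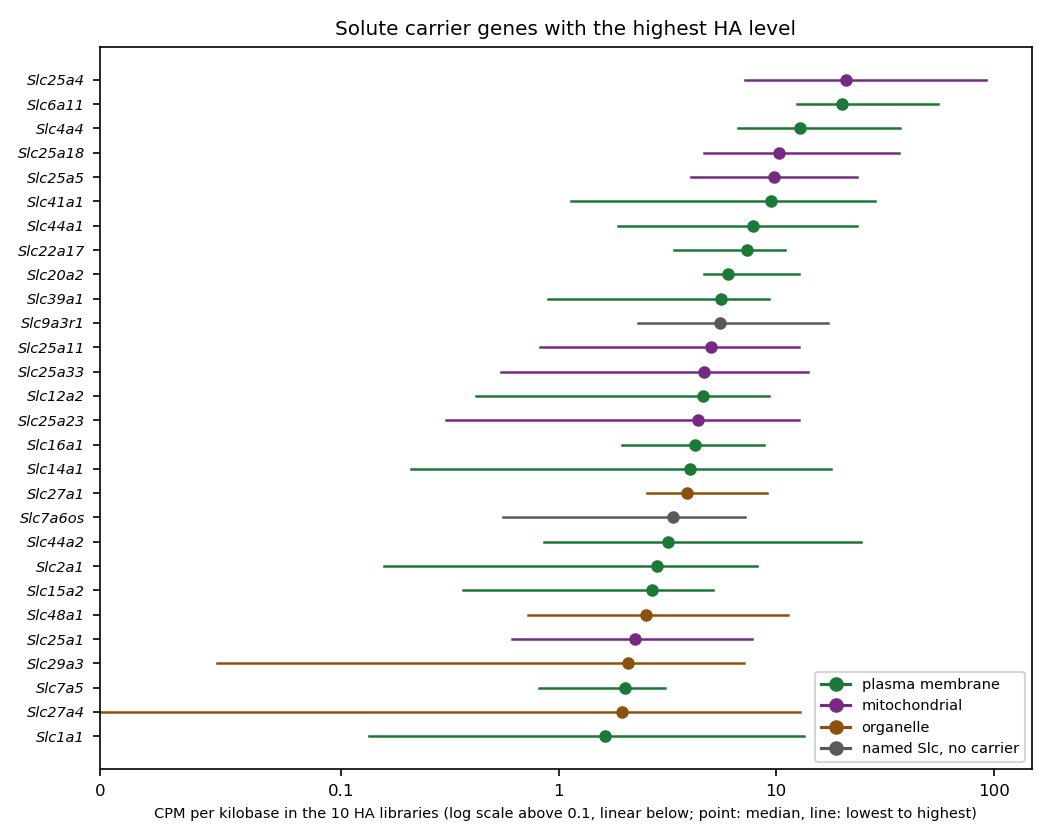
Level of 28 of the 30 solute carrier genes with the highest median in the HA fraction, in CPM per kilobase on the x axis (log scale above 0.1, linear below), with the median of 10 libraries as a point and the lowest to highest as a line, coloured by location of the carrier. Slc25a4 (median 20.8) and Slc6a11 (median 19.99) lead, and the lines of neighbours overlap.

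The carriers were first compared between the fractions, which asks which carrier transcripts were on tagged ribosomes more or less than in the remaining RNA of the same tissue. The test used 20 libraries of the 10 numbers present in both fractions. The FT libraries 1645, 1683 and 1729 have no HA library and were left out. Scaled within FT, their astrocyte markers summed to 1299, 7715 and 8257 CPM, against 339 to 3003 CPM in the other FT libraries. Of the 84 members with a row in both fractions, 52 had enough counts to be tested and 32 did not. In HA over FT, 13 of the 52 rose and 4 fell at an adjusted p under 0.05 (edgeR's quasi-likelihood test with Benjamini-Hochberg adjustment over all 3295 genes tested), which is 32.7% of those tested, beside 20.6% of all genes tested (13.2% rose and 7.37% fell). The median log2 difference, HA over FT, was 0.70 over the 52 carriers and 0.28 over all genes tested. By location, 9 of 32 plasma membrane carriers rose and 4 fell (median 0.71), 3 of 9 mitochondrial carriers rose and none fell (median 0.02), 0 of 9 organelle carriers passed by edgeR or by DESeq2 (1 had an unadjusted p under 0.05; median 0.25), and 1 of the 2 members that are no carriers rose. In bulk RNA a lower level can come from fewer cells of a type or from less RNA per cell, which cannot be told apart. Every value given in the following paragraphs as lowest, median and highest is CPM over the 10 libraries of a fraction.

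**Figure D2:**
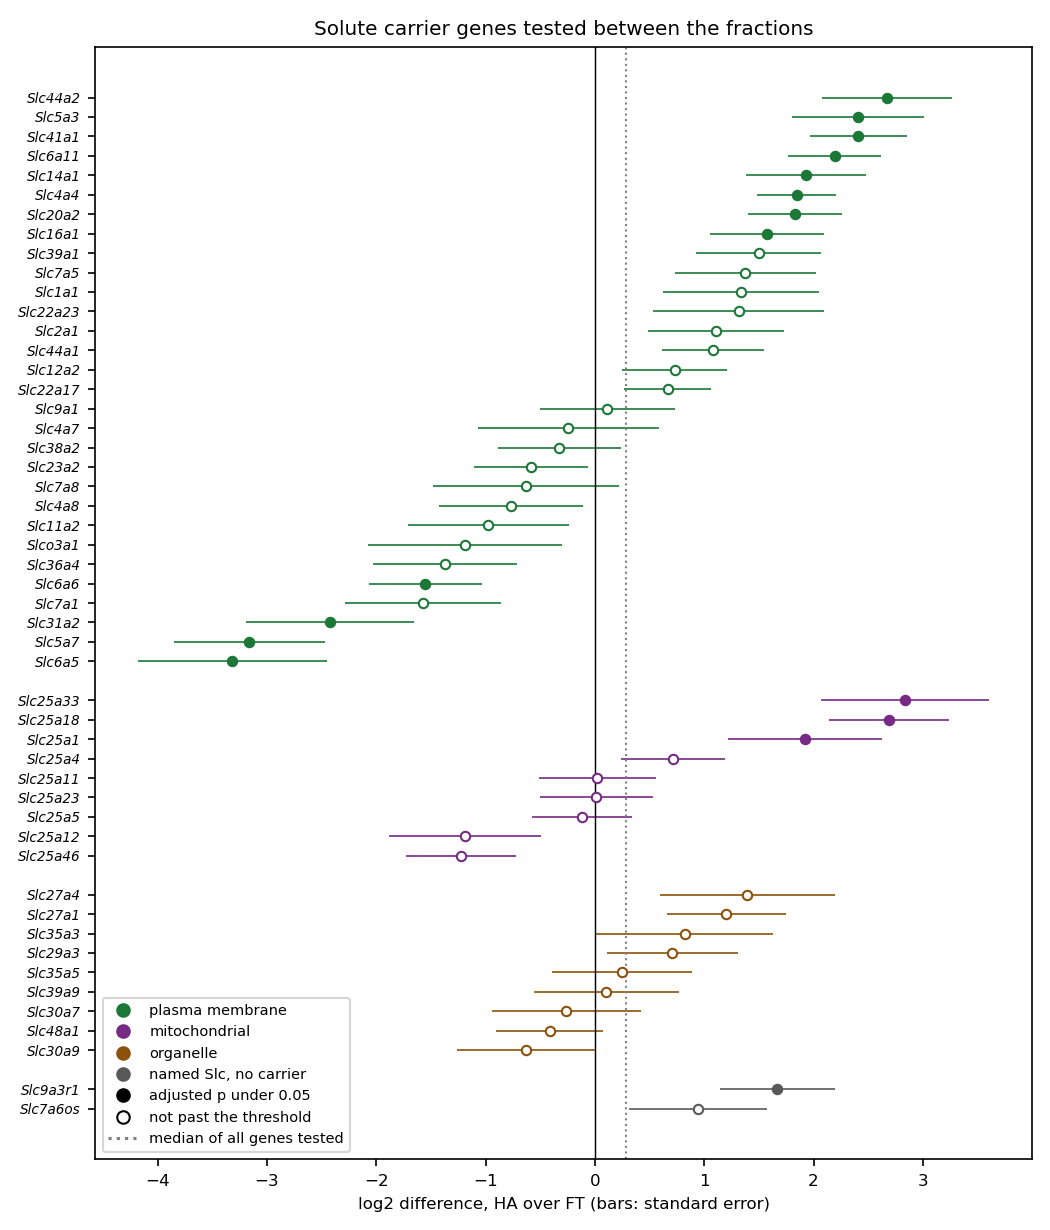
Log2 difference, HA over FT, of 50 of the 52 tested carriers with its standard error (bars), by location of the carrier; filled points passed an adjusted p under 0.05, open points did not, and the dotted line is the median of all genes tested (0.28). The 12 filled points above 0 run up to 2.84 (Slc25a33), and the 4 below 0 reach down to -3.32 (Slc6a5).

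Among the transmitter carriers, 4 of 6 members were tested, 1 rose and 2 fell. Slc6a11 (chr6:114131241-114249952, GENCODE M21 on GRCm38, plus strand), which takes GABA up into astrocytes, had 83.9, 139 and 372 CPM in HA, against 0, 37 and 94.6 CPM in FT. It was above FT in 10 of 10 numbers, with ranges that overlapped. It rose by a log2 difference of 2.19 (SE 0.42, adjusted p = 2.13e-04, edgeR). In 7 other settings, among them a fit with all libraries of both fractions, the difference was 1.52 to 2.47 (highest adjusted p 0.0221, edgeR or DESeq2). Slc5a7 (chr17:54273590-54299034, minus strand), the high-affinity choline transporter of cholinergic neurons, had 0, 0.599 and 2.35 CPM in HA, against 2.71, 5.74 and 14.8 CPM in FT. The fractions did not overlap in any library, as for 2 of the 52 members and 2.12% of all 3295 genes tested. Slc5a7 fell with a log2 difference of -3.16 (SE 0.69, adjusted p = 8.65e-04, edgeR) on FT counts of 1 to 11 per library. Slc6a5 (chr7:49910146-49963856, plus strand), the glycine transporter GlyT2 of inhibitory neurons, had 0.388, 0.859 and 152 CPM in HA, against 19.2, 49.0 and 72.1 CPM in FT. It was below FT in 9 of 10 numbers and fell with a log2 difference of -3.32 (SE 0.86, adjusted p = 0.00490, edgeR). The exception was hydrogel with growth factors 1732, whose HA library had the 152 CPM. Within the hydrogel numbers alone the difference of Slc6a5 was -1.44 (adjusted p = 0.396), and within the SCI only numbers it was -5.92 (adjusted p = 3.7e-05, edgeR).

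Windows in the RefSeq promoter table (GRCm38.p6) run from 250 bases before to 50 after the start given by RefSeq. That start differs from the GENCODE start for Slc6a5, and for Slc41a1, whose window lies wholly inside the GENCODE gene. Of the 2 plasma membrane members with the smallest p in each direction that have a window, the letters are shown with the motif matches in capitals. These are the 2 that rose, Slc41a1 (chr1:131827762-131828061, plus strand) and Slc6a11 (chr6:114130991-114131290, plus strand), and the 2 that fell, Slc5a7 (chr17:54298985-54299284, minus strand) and Slc6a5 (chr7:49910049-49910348, plus strand, the 5′-most of its 2 windows), so that the starts of carriers on tagged ribosomes and of neuronal carriers can be read side by side.
Slc41a1: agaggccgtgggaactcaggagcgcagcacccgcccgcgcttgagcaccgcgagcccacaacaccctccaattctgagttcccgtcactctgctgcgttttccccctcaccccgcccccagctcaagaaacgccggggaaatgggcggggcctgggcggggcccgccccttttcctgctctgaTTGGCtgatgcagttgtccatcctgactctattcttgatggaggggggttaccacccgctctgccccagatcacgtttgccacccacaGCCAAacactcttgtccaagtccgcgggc
Slc6a11: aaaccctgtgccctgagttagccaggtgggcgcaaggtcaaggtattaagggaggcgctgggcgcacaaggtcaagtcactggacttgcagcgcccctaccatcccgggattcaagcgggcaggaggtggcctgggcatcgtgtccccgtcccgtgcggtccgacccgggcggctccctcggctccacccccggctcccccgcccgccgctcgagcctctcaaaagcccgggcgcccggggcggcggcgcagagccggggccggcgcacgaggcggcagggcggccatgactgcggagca
Slc5a7: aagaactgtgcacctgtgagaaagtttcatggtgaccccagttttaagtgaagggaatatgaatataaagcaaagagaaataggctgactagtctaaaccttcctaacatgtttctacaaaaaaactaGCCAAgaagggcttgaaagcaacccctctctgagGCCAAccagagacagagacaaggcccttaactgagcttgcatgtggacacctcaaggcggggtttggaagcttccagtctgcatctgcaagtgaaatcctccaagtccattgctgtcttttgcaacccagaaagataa
Slc6a5: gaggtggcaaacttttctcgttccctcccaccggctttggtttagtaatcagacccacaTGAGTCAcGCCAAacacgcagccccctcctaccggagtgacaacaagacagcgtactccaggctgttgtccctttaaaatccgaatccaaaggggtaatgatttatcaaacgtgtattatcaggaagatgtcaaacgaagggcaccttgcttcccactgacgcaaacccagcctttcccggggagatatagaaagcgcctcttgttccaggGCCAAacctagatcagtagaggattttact
The motifs searched on both strands were the nuclear factor I element TTGGC, with its reverse complement GCCAA, the STAT element TTCNNNGAA and the AP-1 element TGANTCA. Of 32851 promoter windows of all genes, 46.7% held the TTGGC motif, 8.3% the STAT motif and 7.81% the AP-1 motif. Slc41a1, Slc5a7 and Slc6a5 each held 2 matches to TTGGC or GCCAA and Slc6a11 none, and Slc6a5 held 1 AP-1 match, TGAGTCA, next to a GCCAA. Over the called members with a window, 4 of 10 that rose and 3 of 3 that fell held the TTGGC motif, 0 of 10 and 1 of 3 the AP-1 motif, and none the STAT motif. A match describes letters in this window only.

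Among the sugar and monocarboxylate carriers, 2 of 7 sugar members and 2 of 7 monocarboxylate members were tested. Slc16a1 (MCT1, a lactate and ketone carrier) had 16.9, 32.4 and 59.2 CPM in HA, against 0, 11.9 and 22.2 CPM in FT. It rose in 10 of 10 numbers by 1.57 (SE 0.52, adjusted p = 0.0276, edgeR). The difference of Slc16a1 was 0.73 within the SCI only numbers (adjusted p = 0.427) and 2.54 within the hydrogel numbers (adjusted p = 0.0462, edgeR). Slc5a3, which brings myo-inositol into cells as an osmolyte, had 8.57, 23.8 and 196 CPM in HA, against 0, 3.66 and 18.1 CPM in FT. It rose by 2.41 (SE 0.60, adjusted p = 0.00344, edgeR). Its difference was 1.23 within the SCI only numbers (adjusted p = 0.227) and 4.08 within the hydrogel numbers (adjusted p = 0.00463). The glucose carrier Slc2a1 (GLUT1, rich at the blood-brain barrier) had 0.94, 15.2 and 51.8 CPM in HA, against 0, 7.17 and 31.5 CPM in FT. It did not pass (log2 difference 1.11, adjusted p = 0.214, edgeR).

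Among the ion, pH, metal and phosphate carriers, 5 of 18, 8 of 18 and 1 of 4 members were tested. Slc4a4 (chr5:88886818-89239653, plus strand) had 96.8, 179 and 476 CPM in HA, against 25.1, 54.9 and 162 CPM in FT. It was higher in 10 of 10 numbers and rose by 1.85 (SE 0.36, adjusted p = 2.44e-04, edgeR). In 7 other settings, among them all libraries, the difference was 1.18 to 2.12 (highest adjusted p 0.0360, edgeR or DESeq2). Slc41a1 (chr1:131827493-131848865, plus strand) had 9.87, 78.8 and 245 CPM in HA, against 6.10, 14.3 and 32.8 CPM in FT. It rose in 9 of 10 numbers by 2.41 (SE 0.44, adjusted p = 1.25e-04, edgeR). Both stayed past the threshold within the hydrogel and within the SCI only numbers, as did Slc6a11 and Slc25a18, while each of the other called members named here missed it, or had too few counts to be tested, in at least 1 of these sets. Slc20a2 (a sodium-phosphate cotransporter) had 27.1, 37.3 and 74.1 CPM in HA, against 3.71, 10.5 and 43.4 CPM in FT. It rose by 1.83 (SE 0.43, adjusted p = 0.00192, edgeR). Its difference was 0.96 within the SCI only numbers (adjusted p = 0.216) and 2.81 within the hydrogel numbers (adjusted p = 0.0111, edgeR). Slc31a2, a copper carrier, had 0, 1.04 and 5.82 CPM in HA, against 0, 8.17 and 25.9 CPM in FT. It fell with a log2 difference of -2.43 (SE 0.77, adjusted p = 0.0220, edgeR). This call was lost without 1687 (adjusted p = 0.0718), without 1724 (0.0626), without 9874 (0.0552) and with no filter on low counts (0.0546). The chloride importer Slc12a2 (NKCC1) had 4.40, 52.9 and 98.7 CPM in HA, against 5.43, 23.6 and 84.2 CPM in FT. It did not pass (log2 difference 0.73, adjusted p = 0.298, edgeR). The zinc importer Slc39a1 had a log2 difference of 1.5 (adjusted p = 0.0595, edgeR), and DESeq2 gave 1.46 (adjusted p = 0.0204).

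Among the amino acid and other small solute carriers, 7 of 21 and 7 of 14 members were tested. Slc6a6, the taurine transporter, had 0.271, 9.96 and 55.9 CPM in HA, against 4.51, 36.2 and 76.5 CPM in FT. It was below FT in 10 of 10 numbers and fell with a log2 difference of -1.55 (SE 0.52, adjusted p = 0.0289, edgeR). With the replicate block, which pairs the libraries by number, the log2 difference of Slc6a6 was -1.82 (adjusted p = 0.00278, edgeR). The call without a block held in 3 of the 10 fits that left out a number, was lost without 1687, 1724, 1732, 1759, 9596, 9874 or 9935 (adjusted p 0.0503 to 0.0681), and the adjusted p was 0.0785 with no filter on low counts. The large neutral amino acid carrier Slc7a5 (LAT1) had a log2 difference of 1.38 (adjusted p = 0.131) and the glutamine carrier Slc38a2 one of -0.32 (adjusted p = 0.734, edgeR), and neither passed. Slc44a2, a choline transporter-like protein, had 4.80, 19.7 and 139 CPM in HA, against 0, 4.41 and 14.6 CPM in FT. It rose by 2.67 (SE 0.60, adjusted p = 0.00111, edgeR). Slc14a1, the urea transporter UT-B, had 1.41, 28.3 and 106 CPM in HA, against 0, 4.43 and 23 CPM in FT. It rose by 1.93 (SE 0.55, adjusted p = 0.0102, edgeR). Slc44a1 had 12.8, 54.1 and 164 CPM in HA, against 4.51, 18.7 and 175 CPM in FT (log2 difference 1.08, adjusted p = 0.0986, edgeR), and its adjusted p was 0.0300 with a replicate block, 0.0418 with no filter and 0.0243 without 1759. Slc22a17 had a log2 difference of 0.66 (adjusted p = 0.248, edgeR) and was 1 of 3 organic anion and cation carriers tested, none of which passed. Slc9a3r1, the NHERF1 scaffold that anchors transporters to the cytoskeleton and is no carrier itself, had 7.31, 17.1 and 57.9 CPM in HA, against 0, 7.67 and 22.5 CPM in FT. It rose by 1.67 (SE 0.52, adjusted p = 0.0206, edgeR). That call was lost without 9596 (adjusted p = 0.0708), without 9843 (0.0574) and without 9874 (0.0592, edgeR).

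**Figure D3:**
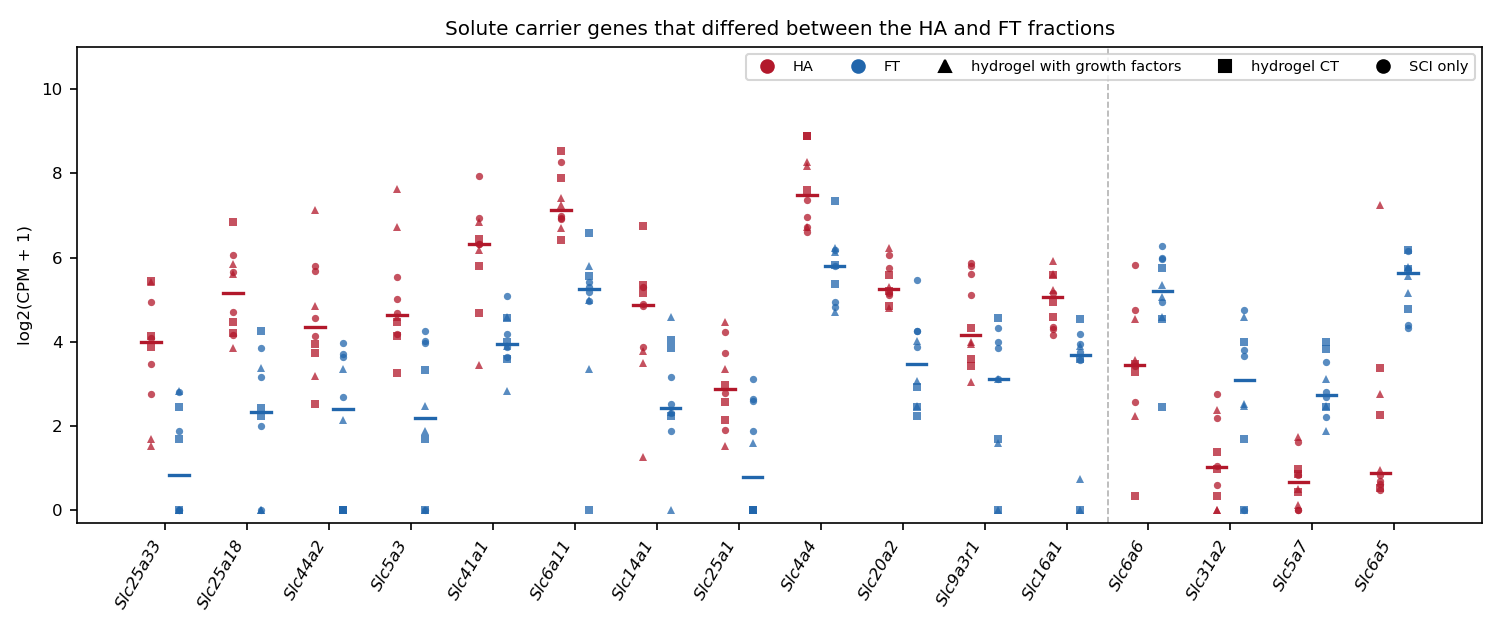
Level of 16 of the 17 carriers that differed between the fractions, as log2(CPM + 1) in each of the 20 libraries, with HA in red and FT in blue and the treatment by symbol. The HA points of Slc5a7 lie below all its FT points, and the single high HA point of Slc6a5 is hydrogel with growth factors 1732.

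The mitochondrial carriers were considered apart. Of 30 members, 15 were in both tables and 9 were tested. Slc25a18 (chr6:120773578-120794336, plus strand), the glutamate carrier of the inner mitochondrial membrane that astrocytes express, had 13.6, 36.5 and 114 CPM in HA, against 0, 4.07 and 18 CPM in FT. It was higher in 10 of 10 numbers and rose by 2.69 (SE 0.55, adjusted p = 4.00e-04, edgeR). Slc25a33, a pyrimidine nucleotide carrier, had 1.88, 14.9 and 42.6 CPM in HA, against 0, 1.11 and 6.10 CPM in FT. It rose by 2.84 (SE 0.77, adjusted p = 0.00701, edgeR). Its exons overlap by 14.9% with the antisense Gm13068, so without a known strand setting some counts could belong to that gene. Slc25a1, the citrate carrier, had 1.88, 6.36 and 21.1 CPM in HA, against 0, 1.02 and 7.67 CPM in FT. It rose by 1.92 (SE 0.70, adjusted p = 0.0469, edgeR). The call on Slc25a1 held in 3 of 8 fits that left out a number, was lost without 1685 (adjusted p = 0.0797), 1724 (0.0691), 1759 (0.101), 1762 (0.0682) or 9843 (0.0734), and was lost with the replicate block (adjusted p = 0.0745) and with DESeq2's size factors (0.0544). The 2 ADP/ATP carriers did not pass: Slc25a4 had 27.8, 67.7 and 288 CPM in HA, against 12.5, 37.3 and 392 CPM in FT (log2 difference 0.71, adjusted p = 0.309), and Slc25a5 had 8.19, 22.4 and 47.1 CPM in HA, against 0, 22.9 and 64.4 CPM in FT (-0.12, adjusted p = 0.887, edgeR). Without 1732 the difference of Slc25a4 was 1.45 (adjusted p = 0.00395, edgeR). The other 4 tested ranged from -1.23 (Slc25a46, adjusted p = 0.0828, and 0.0146 by DESeq2) to 0.02 (Slc25a11, adjusted p = 0.982, edgeR).

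Genes that work with carriers were compared from lists set by function. Of the sodium pump subunits, Atp1b2 rose by 2.46 (adjusted p = 4.35e-04) and Atp1b1 fell with a log2 difference of -3.13 (adjusted p = 1.65e-04, edgeR) in HA over FT. Atp1b3 (-0.17) did not pass. The carbonic anhydrase Car2, which supplies bicarbonate to carriers such as Slc4a4, rose by 1.86 (adjusted p = 5.01e-04, edgeR) and was the only 1 of 3 listed that was tested. Of the chaperones and regulators of carriers 2 of 6 were tested, and of the mitochondrial pores and pyruvate carriers 2 of 5 (Vdac1 at 0.23 and Vdac2 at -0.79); edgeR called 0 of these 4, and 0 had an unadjusted p under 0.05.

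Carriers in the HA table only had few counts: of these 58, 27 could be tested between treatments in HA, 8 were counted in every HA library, and their median counts were 0 to 55.5. Among those named for their role that were not tested between fractions, the neutral amino acid carrier Slc7a10 (Asc-1) had 2 to 20 counts per HA library in hydrogel with growth factors, 74 to 654 in hydrogel CT and 5 to 24 in SCI only. The zinc importer Slc39a12 had 1 to 15, 30 to 106 and 0 to 11 counts in those groups. The glutamine carrier Slc38a3 had 0, 6 to 20 and 0 to 7 counts. The chloride exporter Slc12a5 (KCC2) had 0 to 7 counts in all HA libraries and 3 to 43 counts in SCI only FT. The vesicular GABA carrier Slc32a1 had FT counts of 0 to 16 in hydrogel with growth factors, 0 to 1 in hydrogel CT and 1 to 42 in SCI only. These counts are given unscaled, and hydrogel CT HA libraries hold the most protein-coding counts. The exons of Slc32a1 overlap by 24.9% with Gm14205, and those of Slc7a10 by 17.9% with Lrp3.

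The carriers were then compared between treatments within HA (102 of 142 members tested, 40 under the filter), which asks whether a depot with or without growth factors altered carrier transcripts on tagged ribosomes. None of the 102 passed in hydrogel with growth factors over hydrogel CT (0.0902% of all genes tested), in hydrogel CT over SCI only (0.195%) or in hydrogel with growth factors over SCI only (0.436%), by edgeR's quasi-likelihood test. At an unadjusted p under 0.05 there were 12, 12 and 23 members, beside 13.3%, 12.7% and 21% of all genes. DESeq2 called 3, 3 and 11 members, beside 4.4%, 3.67% and 10.7% of all genes. The median log2 difference of the members was -0.20, 0.12 and 0.14, beside -0.14, 0.27 and 0.12 over all genes, and 14, 15 and 11 members had groups that did not overlap, beside 18.4%, 18.9% and 14.2% of all genes. With DESeq2's size factors the median of all genes was 0.0138 for hydrogel with growth factors over hydrogel CT and 0.0512 for hydrogel CT over SCI only, so small differences near these medians carry no direction. CPM in the comparisons of treatment are scaled within a fraction, so they differ from the CPM of the same library given between fractions. A p that misses the threshold does not show that groups did not differ. The comparisons with SCI only share its libraries, and are read side by side. Of the 28 members picked by role that were tested, 3, 6 and 5 had an unadjusted p under 0.05, and those described below did not pass. Leaving out 1 library at a time gave calls only where hydrogel with growth factors 1687 or 1685 was left out: Slc35a5 for hydrogel CT over SCI only without 1687 (4.19, adjusted p = 0.0472, edgeR), and in hydrogel with growth factors over SCI only Slc6a5 without 1685 (7.12, adjusted p = 0.0234) or 1687 (7.19, adjusted p = 0.0112) and, without 1687, Slc44a1 (2.50, adjusted p = 0.0493) and Slc5a3 (2.63, adjusted p = 0.0419, edgeR). Of all genes, 0.354% were called for hydrogel CT over SCI only without 1687. For hydrogel with growth factors over SCI only the share was 0.5% without 1685 and 1.6% without 1687.

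Between the 2 hydrogel groups, Slc5a3 had 128, 12.5 and 63.7 CPM in hydrogel with growth factors, against 12.8, 10.3 and 5.28 CPM in hydrogel CT (log2 difference 2.86, SE 0.79, adjusted p = 0.250, edgeR). Hydrogel with growth factors 1687 lay inside the hydrogel CT range. Slc14a1 had 6.76, 0.765 and 7.81 CPM in hydrogel with growth factors, against 20.8, 24.3 and 65.3 CPM in hydrogel CT (-2.82, SE 0.86, adjusted p = 0.250, edgeR), and these groups did not overlap. Slc2a1 had 3.53, 0.51 and 5.67 CPM in hydrogel with growth factors, against 9.13, 9.36 and 17.4 CPM in hydrogel CT, also without overlap (-1.86, adjusted p = 0.383, edgeR). Slc44a2 had 5.30, 15.1 and 84.8 CPM in hydrogel with growth factors, against 7.39, 8.84 and 2.96 CPM in hydrogel CT (2.46, adjusted p = 0.270, edgeR). Slc38a1, a neuronal glutamine carrier, had 14.1, 0.255 and 1.63 CPM in hydrogel with growth factors, against 0.158, 0.334 and 0.681 CPM in hydrogel CT (3.76, adjusted p = 0.297, edgeR). Astrocyte markers summed to 3218 to 4010 CPM in hydrogel with growth factors and 2291 to 4528 CPM in hydrogel CT, which overlap. The groups did not overlap in oligodendrocyte progenitor markers (265 to 348 CPM in hydrogel with growth factors, against 139 to 226.5 CPM in hydrogel CT) or in the share of counts on Yam1 (67.5% to 75.7% in hydrogel with growth factors, against 40% to 57.5% in hydrogel CT). The part of any of these in the carrier values was not tested.

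Between hydrogel CT and SCI only, Slc4a4 had 282, 119 and 293 CPM in hydrogel CT, against 60.3, 61.3, 52.8 and 84.3 CPM in SCI only, with no overlap (log2 difference 1.84, SE 0.51, adjusted p = 0.171, edgeR). In hydrogel with growth factors it had 203, 56.9 and 176 CPM, and 1687 lay among the SCI only values. Slc25a4 had 76.5, 81.0 and 178 CPM in hydrogel CT, against 44.1, 13.9, 31.8 and 14.2 CPM in SCI only, also without overlap (2.10, SE 0.62, adjusted p = 0.183, edgeR). With only these 2 groups in the fit, Slc4a4 (adjusted p = 0.0353) and Slc25a4 (adjusted p = 0.0407, edgeR) passed. Slc44a1 had 57.8, 88.7 and 32.8 CPM in hydrogel CT, against 21.1, 27.4, 7.0 and 10.04 CPM in SCI only (1.87, adjusted p = 0.253, edgeR). Slc9a3r1 had 5.84, 6.79 and 11.9 CPM in hydrogel CT, against 33.4, 27.2, 26.2 and 17.3 CPM in SCI only, without overlap (-1.67, adjusted p = 0.311, edgeR). Astrocyte markers summed to 2291 to 4528 CPM in hydrogel CT, against 1879 to 2684 CPM in SCI only, which overlap. The groups did not overlap in oligodendrocyte progenitor markers (139 to 226.5 CPM in hydrogel CT, against 293 to 427 CPM in SCI only) or in ependyma markers, of which 3 of 4 have a row (1.40 to 6.02 CPM in hydrogel CT, against 6.14 to 12.3 CPM in SCI only). Yam1 took 40% to 57.5% of the counts in hydrogel CT, against 87.8% to 93.1% in SCI only. The part of any of these in the carrier values was not tested.

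Between hydrogel with growth factors and SCI only, Slc6a5 had 3.78, 0.51 and 92.6 CPM in hydrogel with growth factors, against 0.449, 0.193, 0.344 and 0.279 CPM in SCI only (log2 difference 6.59, SE 1.45, adjusted p = 0.0519, edgeR). The groups did not overlap, but the size rests on library 1732: leaving out 1 library at a time, the difference was 2.78 to 7.19. Neuron markers summed to 24.3 CPM in 1732, 64.2 CPM in 1685 and 139 CPM in 1687 of this group, against 17.8 to 38.4 CPM in SCI only. Their part in the Slc6a5 values was not tested. Slc44a1 had 79.9, 23.5 and 99.9 CPM in hydrogel with growth factors, against the SCI only values above (2.05, adjusted p = 0.118, edgeR). Slc9a3r1 had 9.44, 8.16 and 4.46 CPM in hydrogel with growth factors, all below the SCI only values (-1.82, adjusted p = 0.159, edgeR), and Slc2a1 had a log2 difference of -2.10 (adjusted p = 0.192, edgeR). Astrocyte markers summed to 3218 to 4010 CPM in hydrogel with growth factors, against 1879 to 2684 CPM in SCI only. Ependyma markers summed to 0.343 to 2.81 CPM in hydrogel with growth factors, where Ccdc153 was at 0 in every library, against 6.14 to 12.3 CPM in SCI only. Yam1 took 67.5% to 75.7% of the counts in hydrogel with growth factors, against 87.8% to 93.1% in SCI only. The ranges of astrocyte markers, ependyma markers and Yam1 did not overlap between the groups, while those of neuron markers did. The part of any of these in the carrier values was not tested.

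**Figure D4:**
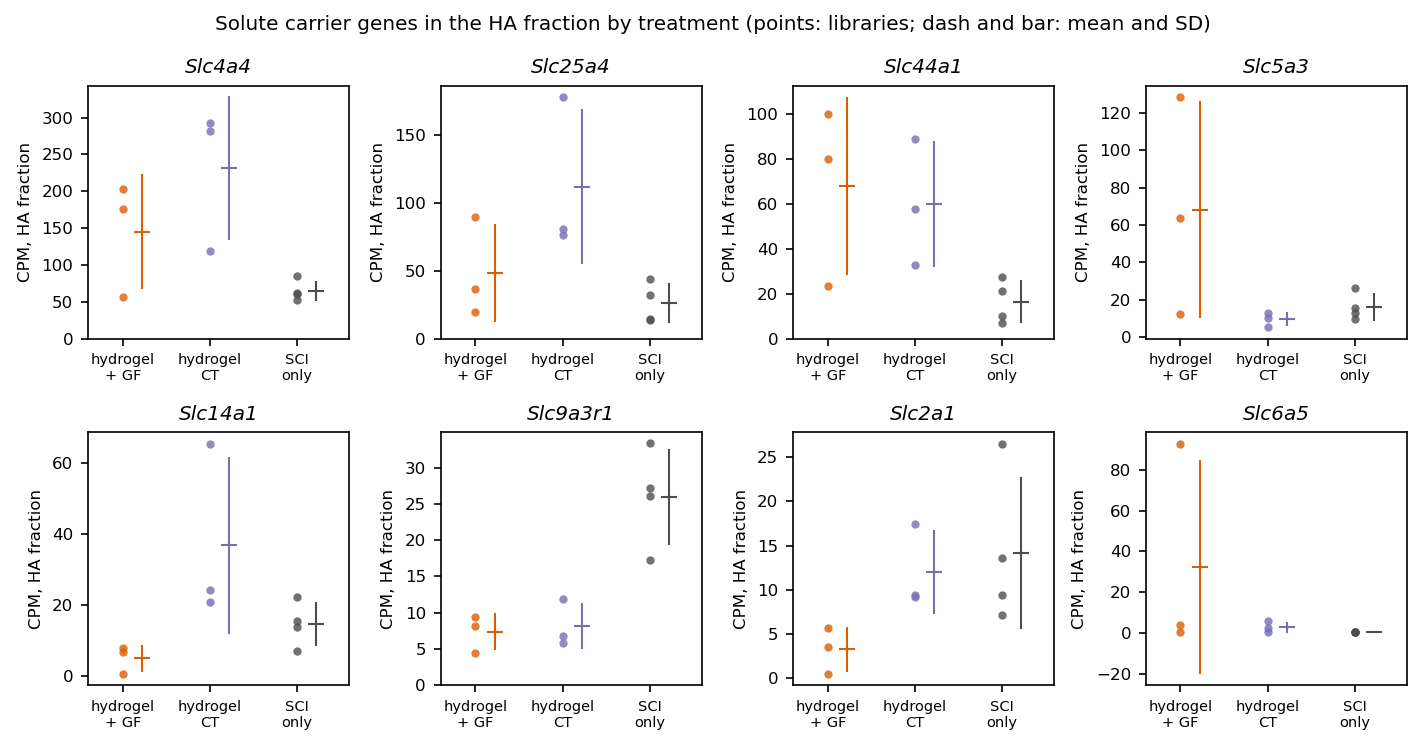
CPM in the HA fraction of 8 carriers by treatment, picked after their values were seen: points are libraries (3 in hydrogel with growth factors, 3 in hydrogel CT, 4 in SCI only), the dash the mean and the bar the SD. Slc4a4 and Slc25a4 lie above all SCI only points in hydrogel CT, Slc9a3r1 lies below them in both hydrogel groups, and the 92.6 CPM of Slc6a5 is a single library.

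In FT, 10 of 88 members had enough counts to be compared between treatments, among 610 genes tested. None passed in hydrogel with growth factors over hydrogel CT (0% of all genes tested) or in hydrogel CT over SCI only (3.11%), and 1 rose in hydrogel with growth factors over SCI only (3.77%), by edgeR's quasi-likelihood test. At an unadjusted p under 0.05 there were 0, 2 and 4 members, beside 3.77%, 17.9% and 18.7% of all genes. DESeq2 called 0, 1 and 3 members, beside 0%, 9.34% and 13% of all genes. The member that edgeR called was Slc25a4, with 37.1, 65.7, 109, 512 and 777 CPM in hydrogel with growth factors, against 35.2, 45.3, 29.3 and 34.9 CPM in SCI only (log2 difference 3.11, SE 0.80, adjusted p = 0.0351, edgeR). The counts behind it were 1, 8, 6, 38 and 578 in hydrogel with growth factors, against 50, 20, 13 and 5 in SCI only, and the groups overlapped. The call was lost without hydrogel with growth factors 1732 (adjusted p = 0.0641) and without any 1 of the SCI only libraries 9596 (0.108), 9843 (0.0946), 9874 (0.147) and 9935 (0.106). Slc6a6 had -1.88 in hydrogel CT over SCI only (adjusted p = 0.188, groups without overlap, as for 19.7% of all genes) and -1.5 in hydrogel with growth factors over SCI only (adjusted p = 0.252, edgeR). Microglia and macrophage markers in FT summed to 80.8 to 1744 CPM in hydrogel with growth factors and 134 to 3292 CPM in hydrogel CT, against 6533 to 16890 CPM in SCI only. Yam1 took 13.7% to 88.6% of the FT counts in hydrogel with growth factors and 28.2% to 67.9% in hydrogel CT, against 89.7% to 93.1% in SCI only. Schwann cell markers summed to 0 to 18.1 CPM in hydrogel with growth factors, against 20.9 to 85.6 CPM in SCI only, and the 1 ependyma marker with an FT row, Foxj1, was at 0 in every hydrogel CT library, against 7.03 to 48.8 CPM in SCI only. The part of any of these in the carrier values was not tested.

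Whether the HA over FT difference itself changed with treatment was tested as an interaction in the 20 paired libraries, over 3295 genes. None of the 52 members passed in any of the 3 contrasts by edgeR's quasi-likelihood test (0%, 0% and 0.0607% of all genes). At an unadjusted p under 0.05 there were 4 members for hydrogel with growth factors against hydrogel CT (10.3% of all genes), 0 for hydrogel CT against SCI only (4.28%) and 10 for hydrogel with growth factors against SCI only (13.2%). DESeq2 called 0, 0 and 1 members, beside 0.819%, 0% and 2.25% of all genes. This model has no block on the number that pairs the libraries. With that block, an alternative added after the data were seen, edgeR again called 0 members in each contrast, beside 0%, 0% and 0.425% of all genes. Without the block the smallest p was that of Slc6a5 in the last contrast (log2 difference of differences 6.26, SE 1.5, adjusted p = 0.0728, edgeR; 0.0413 without 1685), followed by Slc5a3 (4.07, adjusted p = 0.177), and Slc25a4 had -2.69 (adjusted p = 0.217, edgeR). With the block the value of Slc6a5 was 3.68 (adjusted p = 0.327) and that of Slc5a3 4 (adjusted p = 0.213, edgeR).

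The authors' deposited table gives fold changes and false discovery rates per transcript row, and the carrier rows with a false discovery rate under 0.05 were counted. The share of all rows under 0.05 was not counted, so these counts do not show whether carriers differed from other genes. In HA, 4 of 157 rows passed for hydrogel CT over SCI only (3 higher, 1 lower), 3 for hydrogel with growth factors over SCI only and 1 for hydrogel CT over hydrogel with growth factors. The authors' deposited table has Slc4a4 at a log2 fold change of 1.99 (false discovery rate 0.0256) and Slc44a1 at 2.50 (0.0492) for HA in hydrogel CT over SCI only, and Slc6a5 at 6.68 (0.00134) in hydrogel with growth factors over SCI only. In FT the authors' deposited table had 11 of 92 rows for hydrogel CT over SCI only (1 higher, 10 lower), 7 for hydrogel with growth factors over SCI only (1 higher, Slc25a4 at 3.03 with a false discovery rate of 0.0153, and 6 lower) and 0 for hydrogel CT over hydrogel with growth factors.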

How the data were processed

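Each deposited table holds integer counts per transcript row of one fraction, with a gene symbol, and the authors' own log2 fold changes, p-values and false discovery rates. Per the submitters' processing notes, CASAVA 1.8.2 and edgeR were used on build mm10; the sources used here do not name an aligner, a counter, its handling of strand or an annotation. Per the labels, cDNA was made from 5 ng of RNA with an Ovation kit. The tables hold 45 further per-sample columns that match no sample here and were not used. Rows without a symbol carried 0.00272% to 0.319% of the counts per library and were left out. Counts were summed per symbol.

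The main test was edgeR's quasi-likelihood test (edgeR 4.0.16, R 4.3.3) on the deposited counts, with TMM scaling, filterByExpr at a minimum count of 10 and Benjamini-Hochberg adjustment over all genes tested. The fractions were compared over the 10 numbers in both, with treatment as a covariate and no block. The series text says that both fractions come from the same tissue samples and their titles share numbers, so the numbers pair libraries. Within a number, the deviations from the group means correlated at 0.00656 to 0.121, above 0.1 in 2 of 10 numbers. For 8 of the 10 numbers, the HA library correlated best with the FT library of its own number, among FT libraries of its treatment. Treatments were compared within a fraction, and interactions with all 20 libraries. The labels do not state which replicates are separate animals, so p-values cover only library-to-library spread, which may be technical. Levels per kilobase use transcript lengths and GENCODE M21 (GRCm38) gives locations. The alternatives were DESeq2 1.42.0, its size factors, other filters, leaving out ribosomal loci or each library, and title-number sets. Between the fractions, a replicate block and a fit with all libraries were also run. The test was checked on simulated data.

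The members, roles and lists were chosen with earlier results of these data known. The naming rule gives every called member and 42 members picked by role, whether or not they pass. Of these 34 have a row, and Slc2a3, Slc3a2, Slc6a9, Slc17a7, Slco1c1, Slco2b1, Slc15a3 and Slc11a1 are not analysed here. This rule was not followed to the letter. For the comparisons between treatments, an earlier set held only members with an unadjusted p under 0.05; recomputing all of the picked members first gave many sign changes of values near 0, and the set described under each alternative was then narrowed, after those values had been seen, to members called, and picked members or members called between the fractions with an unadjusted p under 0.05. The rest are counted in the closing section. Some members and listed genes are not reported here by name or in figures, and stay in the counts over members. Members named outside the rule (Slc35a5, Slc39a1, Slc5a3, Slc44a2, Slc25a46 and Slc25a11 where not called, and the 8 plotted by treatment) were chosen after their values were seen. FT values are coarse, since 1 count in a shallow FT library is several CPM.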

Additional observations from a re-analysis of the deposited data

Results flagged for a closer look

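Of 64 groups of libraries checked, 16 (25%) had 1 library far from the others of its group. The threshold used (Dixon's critical value) gives about 1 in 20 by chance in groups of like libraries with normally distributed values. The values checked were CPM without a log, whose distribution was not tested, so the 25% cannot be set against that rate. In HA, over 10 libraries, the library apart was hydrogel with growth factors 1732 for Slc6a5 (151.7 CPM), Slc44a2 (138.9 CPM) and Slc38a2 (47.65 CPM), and 1685 for Slc5a3 (196.0 CPM). In HA it was hydrogel CT 1762 for Slc25a4 (288.3 CPM), Slc25a18 (113.6 CPM) and Slc14a1 (105.9 CPM). In HA it was SCI only 9874 for Slc41a1 (244.6 CPM) and 9843 for Slc6a6 (55.85 CPM).

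In FT, over 10 libraries, hydrogel with growth factors 1732 stood apart for Slc25a4 (392.0 CPM), hydrogel CT 1762 for Slc4a4 (162.2 CPM) and Slc2a1 (31.54 CPM), and hydrogel CT 1759 for Slc44a1 (175.0 CPM). SCI only 9596 stood apart for Slc20a2 (43.4 CPM) and 9874 for Slc7a5 (17.26 CPM). Among the 5 FT libraries of hydrogel with growth factors, 1729 stood apart for Slc12a2 (983.3 CPM). Groups over 10 libraries pool the treatments, so a library can stand apart with its treatment. Except for Slc12a2, these CPM are scaled over both fractions together.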

How the results depend on the processing

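With a replicate block, 13 members rose and 4 fell between the fractions (12 and 4 shared with the main calls): Slc25a1 was lost and Slc44a1 gained, and no other call changed. Leaving out 1 number gave 11 to 15 higher and 2 to 4 lower, and the SCI only numbers alone 8 and 2 (7 and 1 shared). The hydrogel numbers alone gave 1 lower, and kept higher calls such as Slc4a4 and Slc6a11. Of all genes, 20.4% were called in either direction with the block and 16.7% to 22.5% when a number was left out. In the SCI only numbers 11.7% of all genes were called, and in the hydrogel numbers 9.81%. Slc25a5 changed sign between the fractions with no filter (0.181), a minimum mean of 5 CPM (0.112), the block (0.0381), the SCI only numbers (0.0591) and when a number was left out (-0.342 to 0.394), and Slc38a2 in the hydrogel numbers (0.617). Leaving out 1 library, Slc6a5 ran from -0.327 to 4.59 in HA for hydrogel with growth factors over hydrogel CT and from -0.415 to 4.65 in the interaction of that contrast, and Slc12a2 from -0.0494 to 2.52 in FT for hydrogel with growth factors over SCI only.

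DESeq2 called 2 higher and 1 lower for hydrogel with growth factors over hydrogel CT in HA, 1 and 2 for hydrogel CT over SCI only, and 3 and 8 for hydrogel with growth factors over SCI only (4.4%, 3.67% and 10.7% of all genes in either direction). In FT it called 1 higher for hydrogel CT over SCI only and 3 higher for hydrogel with growth factors over SCI only (9.34% and 13% of all genes), and in the interaction of hydrogel with growth factors against SCI only 1 higher (2.25%). With only the 2 groups in the fit, 3 rose in HA and 1 in FT for hydrogel CT over SCI only, beside 1.67% and 13.8% of all genes called. With no filter, 1 rose and 3 fell in FT for hydrogel CT over SCI only (3.04% of all genes) and 1 rose in HA for hydrogel with growth factors over SCI only (0.737%); a minimum mean of 5 CPM gave 1 lower in FT for hydrogel CT over SCI only (2.27%). Without ribosomal RNA loci, hydrogel with growth factors over SCI only gave 1 higher in HA (1.03% of all genes) and 2 in FT (6.33%). Leaving out 1 library gave 0 to 1 higher in HA for hydrogel CT over SCI only (0.0403% to 0.369% of all genes in either direction). For hydrogel with growth factors over SCI only it gave 0 to 3 in HA (0.0306% to 1.6%) and 0 to 1 in FT (1.15% to 4.32%). In the interaction of hydrogel with growth factors against SCI only it gave 0 to 1 (0% to 0.417%). The cause of these changes was not tested.

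Of the members picked by role, those not described under each alternative (28 members, 2326 values over the 9 comparisons of treatment) changed sign in 194 values of 78 pairs of member and comparison, and 0 were called under any alternative. They were left out of the description after these values had been seen. Depth limits FT most: 78 of 88 carriers could not be tested there between treatments.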
